A study of Mus musculus with 36 samples.

Results

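Fibroblasts early in their reprogramming to pluripotency were separated by the E-cadherin protein (CDH1) on their surface, and both fractions then received an inhibitor of the histone methyltransferase DOT1L. The comparison here is between the CDH1-positive and the CDH1-negative fraction under that inhibitor. It rests on 4 of the 36 libraries of the series, 2 per fraction, chosen by their titles. The fractions given vehicle (DMSO), again 2 libraries each, were compared in the same way and share no library with the inhibitor comparison.

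All 4 groups were mouse embryonic fibroblasts taken at E13.5. They were homozygous for a cassette of Oct4, Klf4, Sox2 and c-Myc at Col1a1, which doxycycline switches on, and heterozygous for the reverse tetracycline transactivator at Rosa26. Every group had 3.5 days of doxycycline before the sort and was kept on doxycycline from day 3.5 to day 5.5, with SGC0946 (the DOT1L inhibitor) or with DMSO. The growth protocol puts reprogramming cells on irradiated feeder fibroblasts and does not say whether feeders were removed after the sort, so feeder RNA cannot be separated in these counts. The labels do not say that replicates came from separate cultures. The spread behind each p-value is that between libraries of the same group, estimated over all 8 sorted libraries and with information shared across genes. That spread may be technical only.

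DOT1L adds methyl groups to lysine 79 of histone H3 along transcribed genes, and its inhibition is known to raise the yield of induced pluripotent cells. Early in reprogramming, fibroblasts take on epithelial features: E-cadherin and EpCAM appear at the surface, tight junctions and keratins are made, and mesenchymal genes decline. E-cadherin is both a marker of that transition and a part of the adhesion between pluripotent cells.

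Repressors of the SNAIL and ZEB families, which hold epithelial genes down in mesenchymal cells, bind a hexamer known as an E-box. The proximal promoters of Epcam, Krt8 and Sfn are shown because these genes were among the 12 largest increases in CDH1-positive cells and hold that hexamer. Each line gives 250 bases before the annotated start, 5′ to 3′ on the gene's strand, from RefSeq on build GRCm38.p6, with CACCTG or its reverse complement CAGGTG in capitals.
Epcam, chr17:87635729-87635978, plus strand: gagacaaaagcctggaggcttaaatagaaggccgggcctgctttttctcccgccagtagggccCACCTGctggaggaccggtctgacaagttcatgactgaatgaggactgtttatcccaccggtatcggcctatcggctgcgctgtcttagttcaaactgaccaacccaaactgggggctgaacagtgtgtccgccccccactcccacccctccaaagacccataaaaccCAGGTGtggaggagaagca
Krt8, chr15:102004343-102004592, minus strand: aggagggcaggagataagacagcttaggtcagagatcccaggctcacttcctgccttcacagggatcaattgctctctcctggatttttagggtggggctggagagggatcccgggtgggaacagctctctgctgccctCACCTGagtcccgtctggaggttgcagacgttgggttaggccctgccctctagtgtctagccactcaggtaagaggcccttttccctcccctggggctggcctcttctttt
Sfn, chr4:133602169-133602418, minus strand: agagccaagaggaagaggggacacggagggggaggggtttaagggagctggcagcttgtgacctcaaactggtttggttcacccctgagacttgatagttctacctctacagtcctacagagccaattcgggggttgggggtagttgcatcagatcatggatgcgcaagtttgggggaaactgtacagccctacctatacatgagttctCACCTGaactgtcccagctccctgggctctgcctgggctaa
Counted from the transcription start, the hexamer lies 187 and 19 bases upstream in Epcam, 111 bases upstream in Krt8 and 41 bases upstream in Sfn. Of the 75 genes in 5 epithelial lists, 44 had a promoter in the table, with 55 promoters in all, and 50.9% of these held the hexamer on either strand. Of all 32851 promoters of the table, 17.2% held it. A match describes these letters only.

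Under inhibitor, Cdh1 mRNA stood at 20.9 and 20.9 CPM (counts per 1000000 counts of a library, after TMM scaling) in the 2 negative libraries and at 69.0 and 70.8 CPM in the 2 positive ones. The fractions did not overlap at day 5.5, and the negative fraction was not without the mRNA. Cdh1 encodes the protein that was sorted on at day 3.5. Its 3.34-fold difference in mRNA at day 5.5 cannot be told apart from that choice of cells and is not counted as a finding. Dot1l, the target of the inhibitor, stood at 83.6 and 83.2 CPM in the negative and 81.4 and 78.1 CPM in the positive libraries. That difference did not pass the test (log2 fold change −0.07 ± 0.04, standard error, adjusted p = 0.185). SGC0946 acts on the enzyme, so the mRNA is no check of the treatment.

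No cassette factor passed the test between the fractions. Pou5f1 (Oct4) stood at 118 and 116 CPM in the negative and at 124 and 123 CPM in the positive libraries. Sox2 lay between 89.0 and 95.4 CPM, Klf4 between 191 and 203 CPM and Myc between 257 and 266 CPM over the same 4 libraries. Their adjusted p ran between 0.0818 (Pou5f1) and 0.618 (Klf4) in the edgeR quasi-likelihood test used throughout. The counts hold transcripts of the cassette and of the resident genes together.

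Over all 13968 genes tested, 3749 differed between the fractions under inhibitor at a Benjamini-Hochberg adjusted p under 0.05, which is 26.84%. Of these, 1890 (13.53%) were higher and 1859 (13.31%) lower in CDH1-positive cells. DESeq2 called 1120 higher and 1034 lower. On TPM values, log2(TPM + 1), limma called 1877 higher and 844 lower, so that 69.0% of calls were higher on that scale against 50.4% in edgeR. Most differences were small: 67.1% of the called genes differed by less than 1.2-fold. A difference of 2-fold or more was found in 242 genes that were higher (1.73%) and 19 that were lower (0.136%). Of those 242 genes, 161 had a mean under 1 CPM and 9 a mean of 8 CPM or more. Library totals ran from about 34928000 to 43123000 expected counts over the 8 sorted libraries, and the biological coefficient of variation was 2.26%.

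The positive fraction carried more mRNA for most genes of the epithelial programme. Across the 5 epithelial lists, 73 of 75 genes passed the filter on low counts, 55 of them were higher in CDH1-positive cells and 0 were lower. Cdh1, the sorted gene, is 1 of the 55. The median log2 fold change of the 73 was 0.59, against 0.00 over all genes tested. Cldn7, Ap1m2, Prss8 and Krt5 passed the filter only through their CDH1-positive libraries. Under inhibitor Cldn7 stood at 0.166 and 0.104 CPM in the negative and at 0.729 and 0.822 CPM in the positive libraries. A member that enters in this way could hardly come out lower, so the counts of these lists are descriptions only. The lists differed in how strongly they separated the fractions, with tight junction genes at a median of 1.01 and adherens junction genes at 0.20. In bulk RNA, more cells of one type and more RNA per cell cannot be told apart.

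Tight junction genes gave 15 of 18 tested members higher and 0 lower. Epcam, an adhesion molecule of epithelial and pluripotent cells, stood at 6.33 and 5.72 CPM in the negative libraries and at 17.9 and 16.5 CPM in the positive ones. The positive libraries were both well above the negative ones, a 2.85-fold difference (log2 1.51 ± 0.09, adjusted p = 1.25e-27). Among the claudins, the strands that seal the space between cells, Cldn4 rose from 1.97 and 1.88 CPM to 7.19 and 7.72 CPM (3.87-fold, adjusted p = 3.69e-23). Cldn6, a claudin of early embryonic epithelia, rose from 1.66 and 1.51 CPM to 6.75 and 6.03 CPM (adjusted p = 5.67e-22). Positive and negative libraries did not overlap for either claudin. With 2 libraries a group, lack of overlap says little by itself, and its share over all genes tested is not given here.

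Tjp1, the scaffold protein ZO-1 that fibroblasts make too, lay between 191 and 208 CPM in the 4 libraries and did not pass (adjusted p = 0.214). Lsr, a protein of junctions where 3 cells meet, went from 3.72 and 3.50 CPM to 10.0 and 9.20 CPM (log2 1.41 ± 0.12, adjusted p = 1.01e-19). F11r, the adhesion molecule JAM-A, stood at 37.4 and 37.1 CPM in negative and at 52.5 and 57.3 CPM in positive libraries (adjusted p = 2.22e-18). Cldn3 and Tjp3 were the other members that did not pass (adjusted p = 0.325 and 0.0833).

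In the adherens junction list, 6 of 10 members were higher and 0 lower. Apart from Cdh1 itself, the called members were Jup (plakoglobin, a linker shared with desmosomes), Ctnnd1 (p120 catenin, which stabilises cadherins at the membrane), the cadherin Cdh3 and the nectins Pvrl1 and Pvrl4. Jup went from 185 and 175 CPM to 230 and 231 CPM (log2 0.36 ± 0.03, adjusted p = 4.64e-20). Values of the core catenins lay close together. Ctnna1 stood at 552 and 547 CPM in the negative and at 573 and 555 CPM in the positive libraries, and Ctnnb1 at 893 and 889 against 922 and 914 CPM. Neither passed (adjusted p = 0.277 and 0.185). Catenins link cadherins of any kind to actin. The fibroblast cadherin Cdh2 (N-cadherin) lay between 124 and 127 CPM in the 4 libraries (adjusted p = 0.937).

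Among keratin and desmosome genes, 12 of 16 were higher and 0 lower. Krt8 and Krt18 form the filament pair of simple epithelia. Krt8 went from 43.6 and 43.0 CPM to 83.0 and 82.1 CPM (1.91-fold, adjusted p = 2.94e-39), and Krt18 from 6.48 and 7.46 CPM to 12.7 and 12.5 CPM (adjusted p = 1.42e-12). Krt19 moved much less, from 169 and 169 CPM to 185 and 183 CPM (log2 0.12 ± 0.03, adjusted p = 0.000777). Of the desmosome genes, Dsp (desmoplakin) went from 134 and 137 CPM to 171 and 175 CPM (adjusted p = 1.95e-18). Perp, a membrane protein of desmosomes and a p53 target, went from 107 and 102 CPM to 157 and 161 CPM (adjusted p = 9.02e-33). Dsc2, Evpl, Pkp3 and Krt7 did not pass.

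St14 encodes matriptase, a membrane serine protease of epithelia, and Spint1 and Spint2 encode its inhibitors. St14 was at 13.1 and 12.9 CPM in negative and at 31.0 and 32.9 CPM in positive libraries (2.46-fold, log2 1.30 ± 0.06, adjusted p = 2.89e-36). Spint1 was at 10.8 and 12.2 against 24.9 and 27.0 CPM (2.26-fold, adjusted p = 1.91e-29), and Spint2 at 17.0 and 17.0 against 27.7 and 27.1 CPM (adjusted p = 1.27e-17). Protease and inhibitors were thus all higher.

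The same list holds regulators of epithelial transcription and splicing, and 14 of its 16 tested members were higher, 9 of them under DESeq2. Esrp1, a splicing factor of epithelial cells, went from 0.451 and 0.626 CPM to 2.45 and 2.35 CPM (adjusted p = 4.60e-11). Tcfap2c, the transcription factor AP-2 gamma, went from 6.66 and 6.83 CPM to 12.1 and 12.3 CPM (adjusted p = 2.35e-12). The grainyhead factors Grhl1, Grhl2 and Grhl3 were each called higher, with log2 fold changes of 0.44, 0.99 and 0.85. Ovol1 and Ovol2, repressors of mesenchymal genes, did not pass (adjusted p = 0.778 and 0.0558). Rab25 and Prom2 were removed by the filter on low counts.

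**Figure D1:**
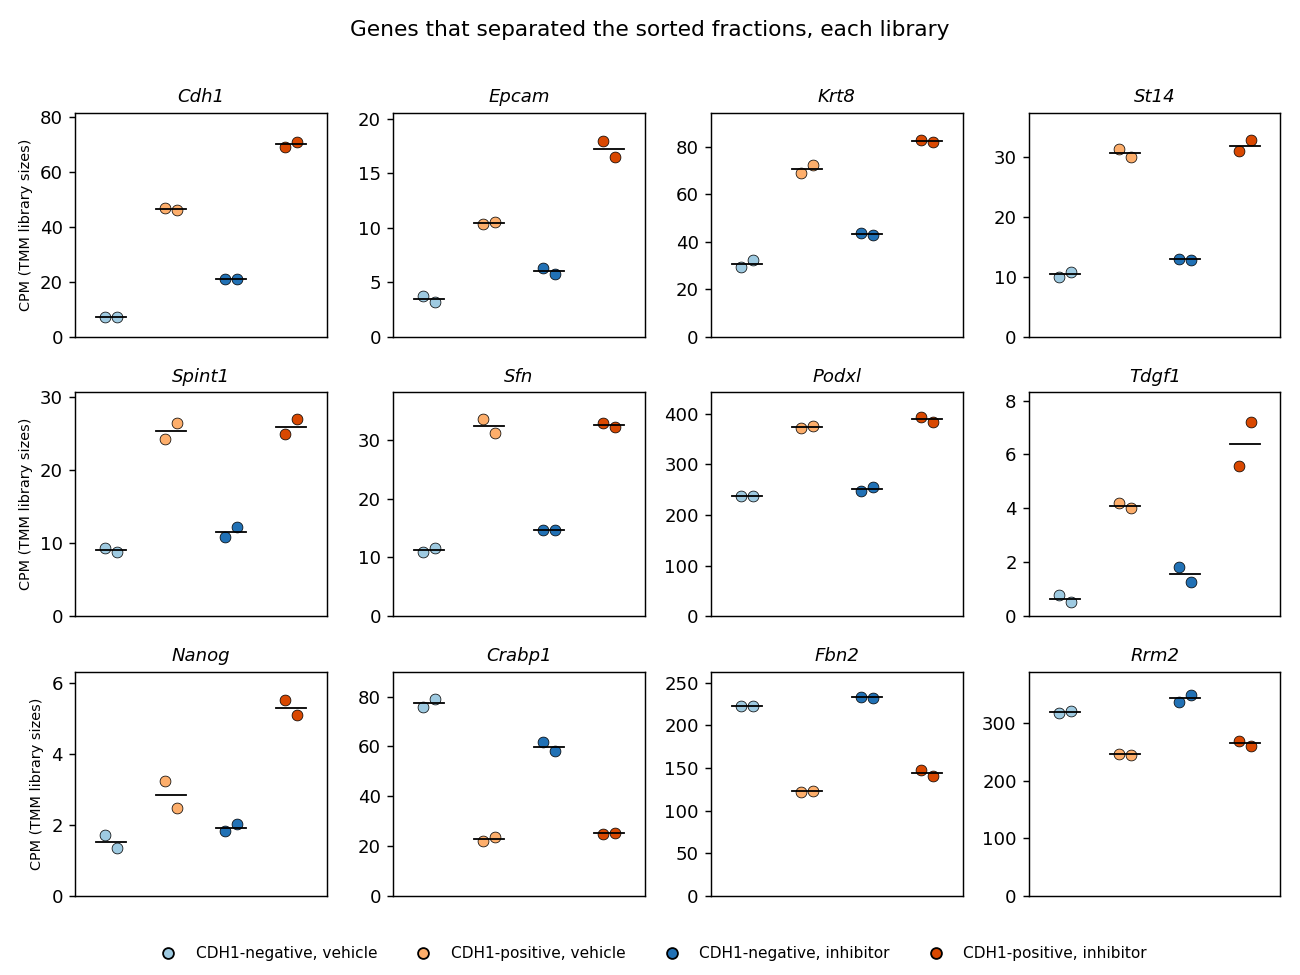
Expression in CPM (vertical axes, linear from 0) of 12 genes in each of the 8 sorted libraries; points are single libraries, bars are the mean of 2. Under inhibitor the epithelial and pluripotency genes sit higher in both CDH1-positive libraries, and Crabp1, Fbn2 and Rrm2 sit lower, with no overlap.

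Genes of the basement membrane and its receptors followed, with 8 of 13 higher and 0 lower. Laminin-332 anchors epithelia, and Itgb4 and Itga3 encode receptor chains for it. Itgb4 went from 249 and 242 CPM to 358 and 360 CPM (1.46-fold, adjusted p = 1.03e-35). Itga6, the partner of Itgb4, was between 115 and 123 CPM in all 4 libraries and did not pass (adjusted p = 0.081).

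Sfn encodes 14-3-3 sigma, a regulator of epithelial growth and of the cell cycle. It went from 14.6 and 14.7 CPM to 33.0 and 32.2 CPM (2.22-fold, adjusted p = 4.99e-33). It belonged to a list of 15 epidermal differentiation genes, of which 10 could be tested, and 5 of these were higher and 0 lower. Tgm1, Ivl, Lgals7 and Sprr1a were the others, at between 0.237 and 26.5 CPM. The basal epidermal factor Trp63 stayed under 1 CPM in every library of the comparison and did not pass (adjusted p = 0.186).

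Fibroblast genes were not lower as a group. Of 26 matrix and surface genes of fibroblasts, 14 were higher in CDH1-positive cells and 3 lower, with a median log2 fold change of 0.12. Fn1, fibronectin, went from 7491 and 7574 CPM to 8792 and 8570 CPM (1.15-fold, adjusted p = 5.94e-13). Lox, which crosslinks collagen, went from 1045 and 1038 CPM to 1290 and 1249 CPM (1.22-fold, adjusted p = 2.95e-19). Fmod, Fbln1 and Fbln5 were lower, by log2 fold changes between −0.33 and −0.14. Vim, the filament protein of mesenchymal cells, stood at 6053 and 5908 CPM in the negative and at 5845 and 5762 CPM in the positive libraries and did not pass (adjusted p = 0.157).

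Contractile genes that the factor SRF drives showed 10 of 16 members higher and 1 lower. Acta2, smooth muscle actin, went from 2305 and 2416 CPM to 2795 and 2727 CPM (1.17-fold, adjusted p = 3.35e-14). Myh11, smooth muscle myosin, went from 50.7 and 52.7 CPM to 65.3 and 62.4 CPM (adjusted p = 4.61e-10). Srf itself was the lower one (log2 −0.13, adjusted p = 0.00329), and it lost its call on TPM. Among 14 fibroblast collagens, 3 were higher and 1, Col15a1, was lower. That share lay near the 26.84% of all genes tested that were called in either direction. That collagen count depended on single libraries: without CDH1-negative inhibitor replicate 1 it was 7 higher, and without replicate 2 of the same group 2 were lower. Without CDH1-negative vehicle replicate 1 or 2, which enter the shared estimate of spread, 3 were lower. Col1a1 ranged from 1929 to 2269 CPM, with wide spread in the negative fraction, and did not pass (adjusted p = 0.305).

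Of 12 transcription factors of the epithelial to mesenchymal transition, 6 were lower and 1 higher. Tbx18, a T-box factor of mesenchyme, went from 33.6 and 32.8 CPM to 26.5 and 25.5 CPM (log2 −0.35 ± 0.05, adjusted p = 5.93e-08). Tcf3, Tbx15, Twist1, Twist2 and Prrx1 were the others, with log2 fold changes between −0.23 and −0.11. The E-box repressors did not pass: Snai1 (adjusted p = 0.46), Snai2 (0.902), Zeb1 (0.875) and Zeb2 (0.61) all had log2 fold changes between −0.01 and 0.07. Foxc2 was the 1 higher member, and without CDH1-negative inhibitor replicate 1, without CDH1-positive inhibitor replicate 2 or under DESeq2 it was not called.

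Of 16 TGF-beta ligands and SMAD targets, 8 were higher and 2 lower. The ligands Tgfb1, Tgfb2 and Tgfb3 were all higher, with log2 fold changes of 0.17, 0.27 and 0.27. Tgfbi, a secreted matrix protein induced by TGF-beta, was lower, at 136 and 138 CPM in negative and 96.9 and 98.4 CPM in positive libraries (log2 −0.49 ± 0.03, adjusted p = 1.55e-24). Tgfbr1 was the other lower member, and it was not called without CDH1-negative inhibitor replicate 1 or CDH1-positive inhibitor replicate 1. Ctgf, Crim1, Ptpn14 and Ankrd1 were higher among 10 YAP targets, and Axl was lower.

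Most tested genes of the pluripotency network were higher in the positive fraction. Of 26 listed, 19 passed the filter, 12 were higher and 0 lower. Esrrb passed only because of its CDH1-positive libraries. Under inhibitor it stood at 0.285 and 0.235 CPM in the negative and at 0.990 and 0.639 CPM in the positive libraries. Such a member could hardly come out lower, so these counts are a description only. Nanog went from 1.82 and 2.01 CPM to 5.52 and 5.07 CPM (2.76-fold, log2 1.46 ± 0.15, adjusted p = 9.27e-14). Tdgf1, the NODAL co-receptor Cripto, went from 1.83 and 1.28 CPM to 5.56 and 7.21 CPM (4.09-fold, adjusted p = 5.04e-20). Sall4, a zinc finger factor of the same network, went from 3.58 and 2.90 CPM to 7.40 and 7.15 CPM (2.23-fold, adjusted p = 5.31e-13). L1td1, an RNA-binding protein of pluripotent cells, stood at 239 and 242 against 314 and 312 CPM (adjusted p = 1.58e-23).

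Zfp42, Dppa3, Dppa4, Dppa5a, Prdm14, Foxd3 and Tcl1 were removed by the filter, and none exceeded 1 CPM in any of the 4 libraries. For scale, embryonic stem cells of the series, from libraries normalized apart, held Nanog at 156 ± 33.5 CPM and Tdgf1 at 1098 ± 47.0 CPM (SD, n = 2), a value set beside these without a test. Of 14 surface and metabolism genes of pluripotent cells, 10 were higher and 0 lower, but 6 without CDH1-positive inhibitor replicate 1. Podxl, a sialomucin of pluripotent and epithelial surfaces, went from 248 and 256 CPM to 394 and 383 CPM (1.54-fold, adjusted p = 1.01e-40). Tdh, the threonine dehydrogenase that mouse stem cells depend on, went from 2.30 and 2.66 CPM to 7.14 and 7.10 CPM (2.87-fold, adjusted p = 1.52e-17).

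Of 15 DNA methylation and chromatin genes, 5 were higher and 6 lower. Dnmt3b, the de novo DNA methyltransferase of early embryos, went from 8.49 and 7.93 CPM to 15.2 and 14.4 CPM (1.80-fold, adjusted p = 2.19e-14), and Tet1, Phc1, Jarid2 and Cbx7 were higher too. The maintenance methyltransferase Dnmt1 went from 226 and 224 CPM to 194 and 195 CPM (log2 −0.21, adjusted p = 1.21e-09), and Uhrf1, Ezh2, Kdm2b, Tet3 and Tdg were lower. Of 15 partners of DOT1L and elongation factors, 2 were lower (Mllt1 and Mllt3) and 1 higher (Aff4), and the lower count was 1 without CDH1-negative inhibitor replicate 1 or CDH1-positive inhibitor replicate 2. Without the latter library the higher count was 2. Over all genes tested, 13.31% were lower and 13.53% higher, so that the shares called among these partners lay near or below the background.

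**Figure D2:**
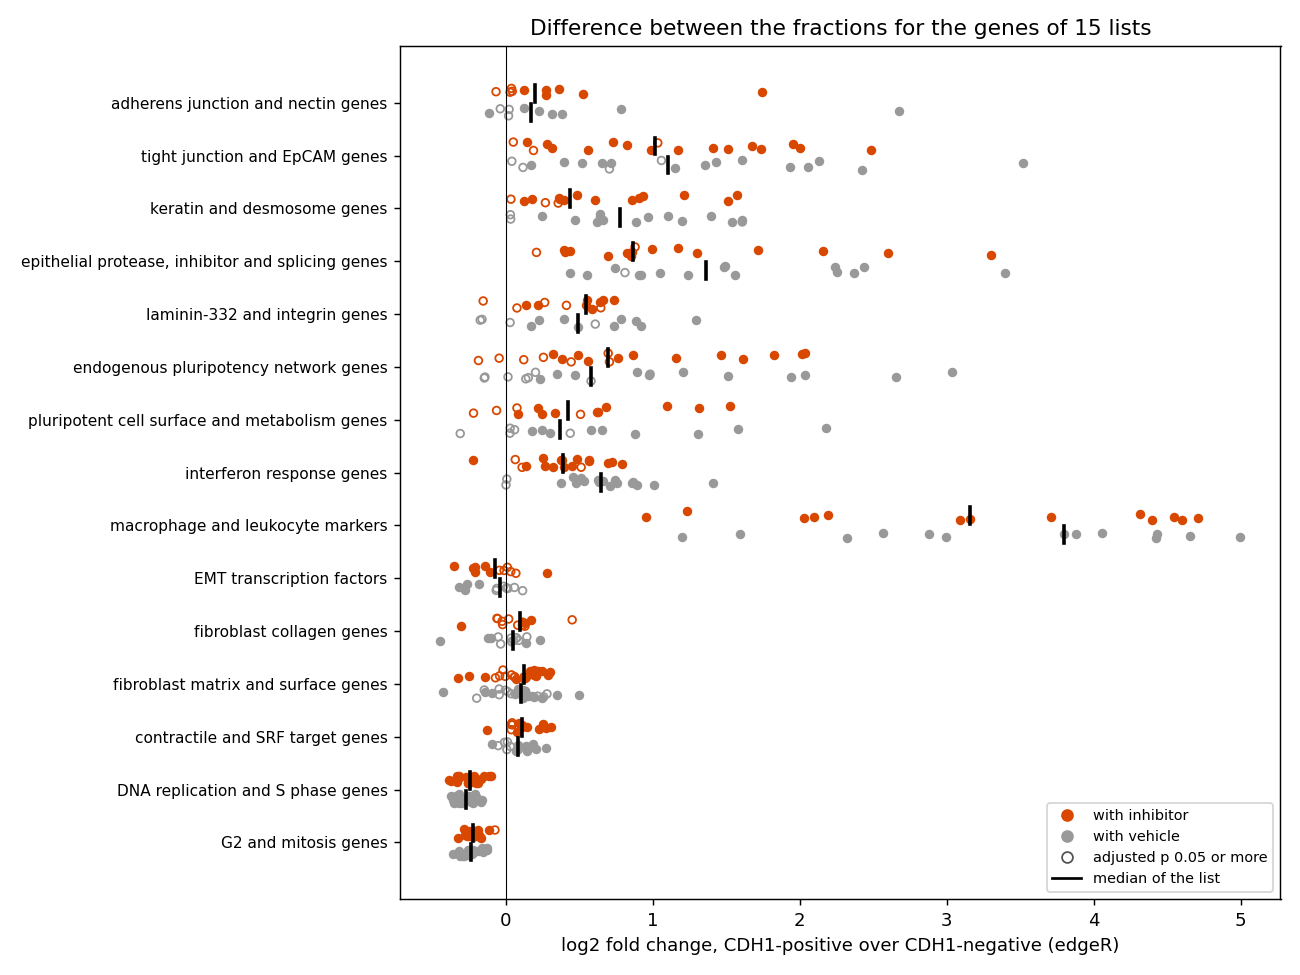
Log2 fold change of CDH1-positive over CDH1-negative cells (horizontal axis) for the tested genes of 15 lists; each point is a gene, orange with inhibitor and grey with vehicle, filled where the adjusted p is under 0.05, and black bars are list medians. Epithelial, pluripotency and macrophage lists lie to the right of 0 and the cell cycle lists to the left under both treatments.

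Genes of the dividing cell were lower in CDH1-positive cells. All 20 DNA replication genes were lower (median log2 fold change −0.25), as were 16 of 17 genes of G2 and mitosis (median −0.22). Rrm2, which makes deoxynucleotides for replication, went from 337 and 348 CPM to 269 and 260 CPM (1.30-fold lower, adjusted p = 3.27e-23). Mki67, the Ki-67 antigen of cycling cells, went from 463 and 485 CPM to 412 and 402 CPM (1.16-fold lower, adjusted p = 1.21e-11). Top2a went from 391 and 400 CPM to 336 and 328 CPM (adjusted p = 3.17e-14). Ccnb1 was the member that did not pass (adjusted p = 0.057). The steps were small.

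Inhibitors of the cycle and p53 targets gave 8 of 16 higher and 2 lower, and only 5 were higher under DESeq2, without CDH1-negative inhibitor replicate 2 or without CDH1-positive inhibitor replicate 1. Ccng1 and Mdm2, both p53 targets, were higher by log2 fold changes of 0.20 and 0.16. Cdkn1a (p21) ranged from 705 to 772 CPM with overlap and did not pass (adjusted p = 0.258). The glucose transporter Slc2a1 was the strongest of 13 glycolysis genes, at 182 and 175 against 229 and 235 CPM (1.30-fold, adjusted p = 1.63e-21). In all 5 glycolysis genes were higher and 1 (Eno1) lower, and without CDH1-positive inhibitor replicate 2 these counts were 3 and 0. Without CDH1-negative inhibitor replicate 2 no glycolysis gene was lower.

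The genes with the largest differences in each direction were taken among called genes with a mean of at least 8 CPM and no overlap between the fractions. The 12 largest increases were Mmp9, Lyz2, Cdh1, Epcam, St14, Spint1, 1600029D21Rik, Sfn, Adam8, Avil, Krt8 and Mal. Mmp9, a secreted metalloprotease, went from 2.16 and 1.75 CPM to 18.8 and 19.6 CPM (9.79-fold, adjusted p = 2.95e-50). Lyz2, lysozyme of macrophages and other myeloid cells, went from 2.59 and 2.56 CPM to 21.7 and 22.1 CPM (8.52-fold, adjusted p = 4.28e-54). Avil, an actin-binding protein of the villin family, went from 53.4 and 54.4 CPM to 105 and 104 CPM (adjusted p = 3.26e-44). Mal, a membrane protein of epithelial apical transport, went from 16.2 and 17.5 CPM to 30.5 and 31.3 CPM (adjusted p = 7.97e-25).

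The 12 largest decreases were Crabp1, Efhd1, Pde2a, Smpd3, Syt13, Ceacam1, Fbn2, Slc38a4, Crym, Fgl2, Aqp1 and Apln. Crabp1, which binds retinoic acid in the cytoplasm, was at 61.7 and 58.1 CPM in negative and at 24.8 and 25.3 CPM in positive libraries (2.39-fold lower, log2 −1.26 ± 0.05, adjusted p = 6.23e-45). Fbn2, a fibrillin of embryonic matrix, was at 233 and 233 against 147 and 140 CPM (1.62-fold lower, adjusted p = 5.26e-41). Ceacam1, an adhesion molecule found in many epithelia, was lower too, at 56.6 and 61.1 against 36.2 and 35.5 CPM (adjusted p = 1.89e-26). Slc38a4, an amino acid transporter and imprinted gene in mouse, was at 73.8 and 77.6 against 48.5 and 46.3 CPM (adjusted p = 2.84e-29). Sfrp2, a secreted modulator of WNT signals with a mean under that minimum, stood at 7.57 and 6.50 against 2.94 and 2.99 CPM (adjusted p = 1.06e-12).

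Markers of macrophages moved with the fractions. Of 14 listed, 13 passed the filter, and none was at 0 in all 8 libraries. All 13 were higher in CDH1-positive cells under inhibitor, with a median log2 fold change of 3.16. Emr1 and C1qa passed the filter only through their CDH1-positive libraries. Under inhibitor Emr1 stood at 0.166 and 0.183 CPM in the negative and at 3.80 and 3.65 CPM in the positive libraries. A member that enters in this way could hardly come out otherwise, so the count of 13 is a description only. Aif1, the member removed by the filter, was at 0.0913 CPM or less in the 4 inhibitor libraries. Their summed level was 12.5 and 12.5 CPM in the negative and 82.0 and 82.4 CPM in the positive libraries. Mrc1, the mannose receptor, went from 0.427 and 0.496 CPM to 11.8 and 10.7 CPM, and Csf1r, the receptor for macrophage growth factor, from 1.99 and 2.22 CPM to 9.51 and 9.68 CPM (4.56-fold, adjusted p = 1.17e-30). The pan-leukocyte marker Ptprc stayed at or under 1.60 CPM. Of the 242 genes higher by 2-fold or more, 12 were in this list, 18 in the 5 epithelial lists and 9 in the pluripotency lists. Mmp9 and Adam8 were higher in the same fraction under inhibitor, as were 14 of 18 interferon response genes, with 1 lower. The part of macrophage RNA in those differences was not tested.

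With vehicle the same summed macrophage level was 13.7 and 13.8 CPM in the negative and 107 and 108 CPM in the positive fraction. In the unsorted libraries of the series, normalized apart, it was 311 and 306 CPM in fibroblasts before induction. It lay between 69.1 and 76.5 CPM in the 4 libraries of day 2 and between 221 and 263 CPM in the 8 libraries of day 4, treated and untreated. Of 7 endothelial markers tested, 2 were higher (Eng and Flt1) and 1 lower (Tek). The lower call was lost under upper-quartile scaling and without CDH1-negative inhibitor replicate 2 or CDH1-positive inhibitor replicate 1, and leaving out the first of these also left 1 higher. Pecam1 and Esam stayed under 1 CPM. Of 6 muscle markers tested, Acta1 and Des were higher, by log2 fold changes of 0.33 and 0.27. Among all genes tested 13.53% were higher and 13.31% lower, and lists of 7 and 6 genes are too small to set against these shares.

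**Figure D3:**
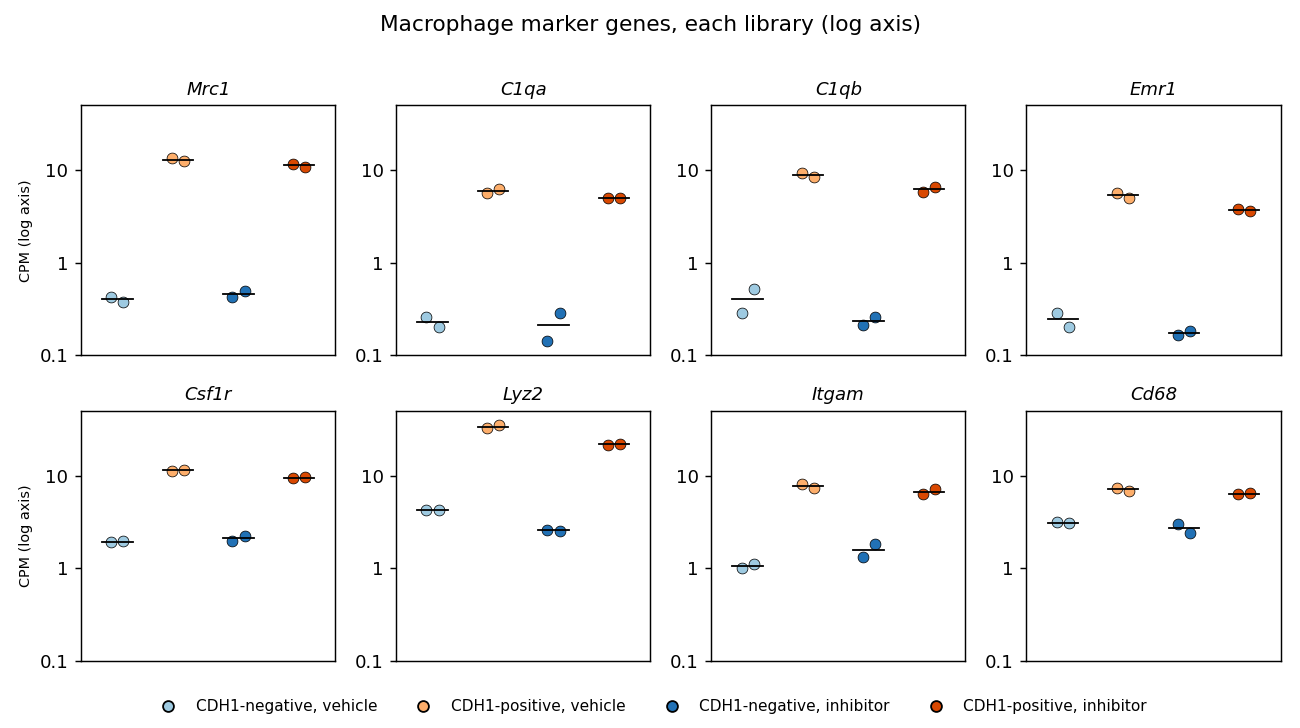
Levels in CPM on a logarithmic axis for 8 macrophage marker genes in each of the 8 sorted libraries; points are libraries and bars the mean of 2. Every CDH1-positive library lies above every CDH1-negative one, with positive libraries between 3.65 CPM (Emr1) and 35.2 CPM (Lyz2).

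With vehicle in place of inhibitor, the fractions differed in 3717 genes, which is 26.61% of those tested, with 1793 higher (12.84%) and 1924 lower (13.77%). A difference of 2-fold or more was found in 259 genes that were higher (1.85%) and 21 that were lower (0.15%). Genes called in both comparisons and in the same direction numbered 2491, which is 66.4% of the calls with inhibitor and 67.0% of those with vehicle, and 5 genes were called in opposite directions. Across the 13968 genes the log2 fold changes of the comparisons correlated with a Pearson r of 0.75 and a Spearman rho of 0.63. The points are genes of the same 8 libraries and not independent replicates. The difference between fractions was smaller with inhibitor for 51.5% of all genes, and for 54 of the 73 tested epithelial genes.

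The difference between the fraction differences was then tested gene by gene. It passed for 26 of 13968 genes (0.186%), 19 with a lower (0.136%) and 7 with a higher (0.0501%) log2 fold change under inhibitor, and 931 genes had an unadjusted p under 0.05. A difference of 2-fold or more was found for 1 gene that was higher (0.00716%, Tppp) and 2 that were lower (0.0143%, Mpeg1 and Ly6g6c). DESeq2 called 11 genes and limma on log2(TPM + 1) called 8. In 16 of the 26 the direction was shared and the difference was smaller with inhibitor, in 3 it was larger (Lrp1, Hspg2 and Pkd1), and in 7 the signs were opposite. Leaving out single libraries gave between 18 and 35 genes.

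**Figure D4:**
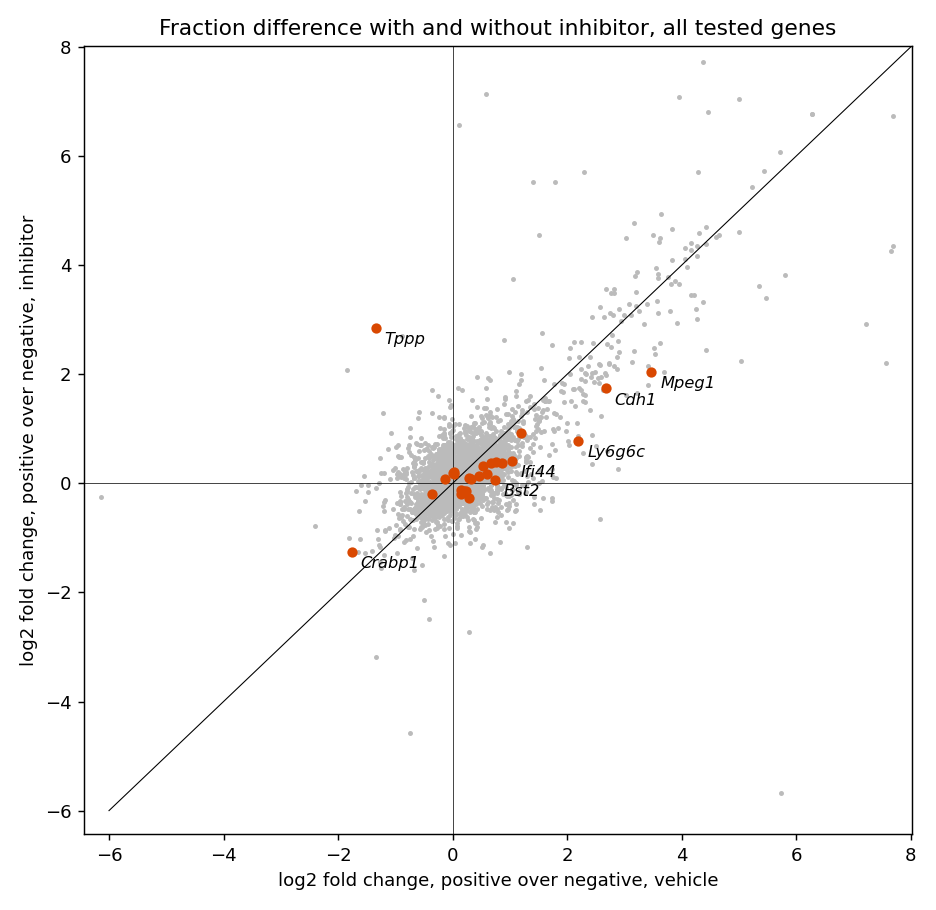
Log2 fold change between the fractions with vehicle (horizontal axis) and with inhibitor (vertical axis) for the 13968 genes tested; orange points are the 26 genes whose fraction difference differed between treatments and 7 of them are named. The diagonal marks equal differences, and Cdh1, Mpeg1 and Bst2 lie below it.

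Cdh1 was among the 26. With vehicle it stood at 7.27 and 7.24 CPM in negative and 46.6 and 46.0 CPM in positive libraries, a 6.38-fold difference against 3.34-fold with inhibitor. The log2 fold change was thus lower by 0.93 ± 0.09 with inhibitor (adjusted p = 1.44e-14). Both fractions held more Cdh1 mRNA in the libraries with inhibitor, and the negative fraction stood further above its vehicle level in proportion than the positive one. Krt8 was the other epithelial gene called, with a log2 fold change lower by 0.27 ± 0.06 (adjusted p = 0.0231), and it was not called by DESeq2 (adjusted p = 0.285). Epcam, at 3.69 and 3.15 against 10.4 and 10.5 CPM with vehicle, gave no call (adjusted p = 0.965), nor did St14, Spint1 or Sfn (adjusted p = 0.555, 0.40 and 0.0607). For Sfn the vehicle libraries stood at 11.0 and 11.6 against 33.5 and 31.2 CPM.

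Of the 26 genes, 4 were in the interferon response list, Bst2, Isg15 and Xaf1 among them. Interferons act through a complex that holds IRF9 on promoters that hold paired GAAA elements. Promoters of 3 called genes that interferon induces are shown with any 2 copies of GAAA that lie 2 free bases apart, or their reverse complement, in capitals, over the same 250 bases and from the same table. These 3 were picked by name and not by a rule, and promoters of the other called interferon genes are not shown.
Bst2, chr8:71537473-71537722, minus strand: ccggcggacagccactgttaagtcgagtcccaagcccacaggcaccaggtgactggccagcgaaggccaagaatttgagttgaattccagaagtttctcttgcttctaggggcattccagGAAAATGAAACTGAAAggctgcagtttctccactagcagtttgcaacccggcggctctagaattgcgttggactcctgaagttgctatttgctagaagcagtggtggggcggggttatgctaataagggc
Isg15, chr4:156200819-156201068, minus strand: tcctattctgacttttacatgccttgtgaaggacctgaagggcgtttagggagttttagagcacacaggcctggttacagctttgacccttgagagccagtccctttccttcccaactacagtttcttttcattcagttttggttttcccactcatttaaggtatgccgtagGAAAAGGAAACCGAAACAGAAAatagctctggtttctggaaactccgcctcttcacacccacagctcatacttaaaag
Irgm1, chr11:48871421-48871670, minus strand: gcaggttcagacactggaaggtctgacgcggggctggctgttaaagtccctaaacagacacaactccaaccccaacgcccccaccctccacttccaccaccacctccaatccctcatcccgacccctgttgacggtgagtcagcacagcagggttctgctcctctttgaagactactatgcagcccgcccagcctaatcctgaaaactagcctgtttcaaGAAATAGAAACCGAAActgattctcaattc
Overlapping matches run together in capitals: 2 for Bst2, 3 for Isg15 and 2 for Irgm1. The element was found in 47.1% of the 17 promoters of interferon list genes in the table and in 2.98% of all promoters.

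Under inhibitor, 14 of 18 interferon response genes were higher in the positive fraction and 1 lower, with a median log2 fold change of 0.39. With vehicle 16 were higher and 0 lower, with a median of 0.65. Bst2, the antiviral membrane protein tetherin, had the smallest p of these. It stood at 53.3 and 54.3 CPM in negative and 55.6 and 56.9 CPM in positive libraries with inhibitor, and at 51.2 and 54.1 against 88.1 and 87.8 CPM with vehicle. The difference did not pass with inhibitor (adjusted p = 0.261) and was 1.67-fold with vehicle, a difference between the log2 fold changes of −0.68 ± 0.06 (adjusted p = 6.02e-17).

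Isg15, a ubiquitin-like protein, stood at 20.6 and 20.8 against 25.9 and 27.9 CPM with inhibitor and at 36.9 and 37.9 against 69.1 and 67.1 CPM with vehicle. Its positive fraction was still higher with inhibitor, by 1.30-fold, but less so than with vehicle, by 1.82-fold (difference −0.48 ± 0.07, adjusted p = 3.10e-06). Ifi44, outside the list, gave a difference of −0.62 ± 0.09 (adjusted p = 2.43e-06). Xaf1, Irgm1, Gvin1 and B2m were also called, with differences between −0.36 and −0.18. Of these, Xaf1, Irgm1 and Gvin1 did not pass under DESeq2 (adjusted p between 0.0973 and 0.181). Ifit3 was higher in the positive fraction by log2 0.70 with inhibitor and 0.63 with vehicle, and its difference was not called. The 1 lower gene under inhibitor was Ifit2, and its call was lost under DESeq2 and without any of 3 of the 4 libraries.

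Levels of the interferon list summed to 283 and 291 CPM in the negative and 346 and 347 CPM in the positive libraries with inhibitor. With vehicle they summed to 343 and 348 CPM and to 542 and 537 CPM. The positive fraction with inhibitor lay within the range of the negative fraction with vehicle. Macrophage markers were also higher in the positive fraction under both treatments, and their part in the interferon values was not tested.

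**Figure D5:**
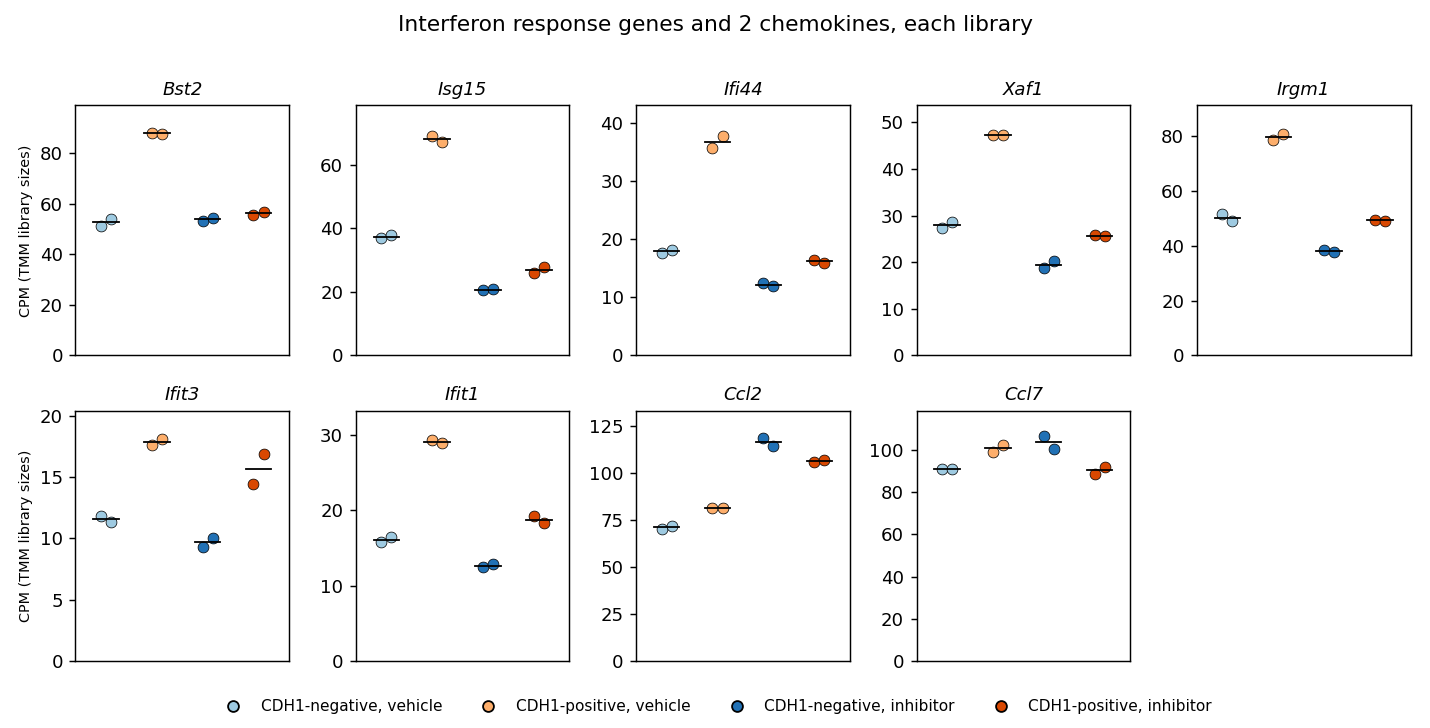
Levels in CPM (vertical axes, linear from 0) of 7 interferon response genes and of the chemokine genes Ccl2 and Ccl7 in each of the 8 sorted libraries; points are libraries and bars the mean of 2. Bst2 separates the fractions with vehicle, at 88.1 and 87.8 against 51.2 and 54.1 CPM, and not with inhibitor, where all 4 libraries lie between 53.3 and 56.9 CPM.

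Ccl2, which attracts monocytes, stood at 119 and 115 CPM in negative and 106 and 107 CPM in positive libraries with inhibitor. With vehicle the order was reversed, 70.3 and 72.2 against 81.4 and 81.7 CPM, and the difference of log2 fold changes was −0.32 ± 0.05 (adjusted p = 5.48e-06). Ccl7, a related chemokine, was also called with opposite signs, at 107 and 101 against 88.6 and 92.1 CPM with inhibitor and 90.9 and 91.3 against 99.1 and 102 CPM with vehicle (adjusted p = 1.44e-06). Egr2, Rnaset2a and Ugcg were the other genes called in opposite directions.

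Among the 7 genes with a higher log2 fold change under inhibitor, Crabp1 came first of those above 8 CPM. With vehicle it stood at 76.0 and 79.0 against 22.0 and 23.7 CPM, 3.39-fold lower in the positive fraction, where with inhibitor it was 2.39-fold lower (difference 0.50 ± 0.07, adjusted p = 2.65e-07). The large matrix and receptor genes Hspg2 (perlecan), Lrp1, Vcan and Pkd1 and the histone methyltransferase gene Mll1 gave differences between 0.14 and 0.20. Tppp was called from under 1 CPM in every library.

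Genes at least 4-fold higher in embryonic stem cells than in fibroblasts with empty virus, from separate libraries of the series in which 34.17% of 15044 genes passed that threshold in either direction, numbered 1678 among those tested here. Of them 16.2% were higher and 25.6% lower in CDH1-positive cells under inhibitor, with a median log2 fold change of −0.03. Of 2525 genes at least 4-fold higher in fibroblasts, 27.5% were higher and 8.00% lower, with a median of 0.08. Over all genes tested, 13.53% were higher and 13.31% lower.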

How the data were processed

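The 8 sorted libraries were analysed, each in 1 deposited table of 20325 mouse genes. Trimmomatic, Bowtie and RSEM 1.2.4 are the authors' tools named in the submitters' processing notes. These also name builds mm9 and hg18, whose combination is not given in the sources used here. The deposited expected counts are RSEM's estimates per gene, made by the authors without normalization. TPM values, deposited beside them, carry the authors' scaling for gene length and library and served only as an alternative. Human RNA was spiked in per the labels, but no scaling to it was made, so a change in total RNA per cell would not be seen.

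The test was edgeR's quasi-likelihood test (version 4.0.16, R 4.3.3) on expected counts rounded to integers, with TMM scaling and robust fits over all 8 libraries (1 coefficient per group, 4 residual degrees of freedom). The filter on low counts, filterByExpr with a minimum count of 10 and a minimum total of 15, removed 6357 genes. Fraction differences under inhibitor, under vehicle and their difference were contrasts of this fit. The threshold for a call was an adjusted p of 0.05 (Benjamini-Hochberg, over all genes tested). Stem cell and fibroblast sets came from a separate edgeR fit of the 14 lentivirus and stem cell libraries. The method was tested on simulated data. Replicates differed by more than counting noise, so none was a copy.

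Named genes were the 12 largest increases and decreases, the 6 of each sign for the difference of differences, the 6 smallest p-values and any described member of each of 40 gene lists (639 genes, 631 matched), and the cassette factors with Cdh1 and Dot1l. The other genes called for the difference of differences, Tppp, Mpeg1 and Ly6g6c among them, were named after their values were seen. The values of some genes are not reported here. Members and lists were chosen with earlier results of these data known. Alternatives were DESeq2 1.42.0, RLE and upper-quartile scaling, other filters, limma 3.58.1 on log2 TPM with pseudocounts of 1 and 0.1, a replicate block, each comparison alone, and each library left out. Promoters came from RefSeq's table for GRCm38.p6, matched by symbol. Pvrl1, Pvrl4, Tcfap2c, Emr1, Ctgf and Mll1 are older symbols kept as in the files.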

Additional observations from a re-analysis of the deposited data

Results flagged for a closer look

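The fraction difference differed between inhibitor and vehicle in 26 genes by the test of that difference, given here as the log2 fold change with inhibitor minus that with vehicle. Among epithelial and adhesion genes these included Cdh1 (−0.93) and Krt8 (−0.27). Among interferon-related genes they included Bst2 (−0.68), Ifi44 (−0.62), Isg15 (−0.48), Xaf1 (−0.36), Irgm1 (−0.29), Gvin1 (−0.22), B2m (−0.18) and Lgals3bp (−0.41), a secreted glycoprotein. Mpeg1 (−1.43), a macrophage perforin, and Ly6g6c (−1.42) had the 2 lowest values. The chemokines Ccl7 (−0.34) and Ccl2 (−0.32), the early response gene Egr2 (−0.54), Rnaset2a (−0.37), Ugcg (−0.26) and Ptprj (−0.25) were also lower. Higher values were found for Crabp1 (0.50), Mll1 (0.20), Pkd1 (0.18), Hspg2 (0.18), Vcan (0.17), Lrp1 (0.14) and Tppp (4.19).

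Mpeg1 stood at 1.04 and 0.652 CPM in negative and 3.65 and 3.42 CPM in positive libraries with inhibitor, and at 0.601 and 0.584 against 6.61 and 6.61 CPM with vehicle. Its call was lost on both TPM scales (adjusted p = 0.0918 and 0.451). Tppp rested on less than 0.5 CPM in each of the 8 libraries.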

How the results depend on the processing

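DESeq2 called fewer genes: 2154 with inhibitor (1120 higher and 1034 lower), 2243 with vehicle (1166 and 1077) and 11 for the difference of differences (2 and 9). Limma on log2(TPM + 1) and log2(TPM + 0.1) left 844 and 837 lower genes with inhibitor and 860 and 874 with vehicle, and for the difference of differences 8 (2 higher, 6 lower) and 9 (2 and 7). At 2-fold or more, 261 genes were called with inhibitor (242 and 19), 280 with vehicle (259 and 21) and 3 for the difference (1 and 2). Leaving out single libraries gave 2672 to 3933 calls with inhibitor (1354 to 1887 higher, 1306 to 2046 lower). With vehicle it gave 2528 to 3908 (1278 to 1877 higher, 1201 to 2037 lower), lowest for lower genes without CDH1-positive vehicle replicate 1. For the difference it gave 18 to 35 (2 to 12 higher, 15 to 23 lower), with 12 higher without CDH1-negative inhibitor replicate 1, 4 without CDH1-positive vehicle replicate 1 and 2 without CDH1-positive inhibitor replicate 1. The causes were not tested. Direction was checked for the named genes and those called for the difference of differences, and not for every called gene. It was checked for the fraction difference with inhibitor and the difference of differences. No gene checked reversed its direction where the main fit or the alternative called it. Replicates with the same number share only that number: correlations of their deviations lay between −0.0743 and 0.0412, and a replicate block gave 3573 calls with inhibitor, 3517 with vehicle and 26 for the difference. The difference of differences could not be had from 4 libraries alone. With 2 libraries a group, a lone remaining library was assumed to vary like the others.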

Other observations

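In a list of 16 amino acid stress and unfolded protein genes, 6 were lower and 2 higher in CDH1-positive cells under inhibitor, with a median log2 fold change of −0.01, and without CDH1-positive inhibitor replicate 2 only 1 was higher. Shmt2, an enzyme of serine and glycine metabolism, went from 159 and 152 CPM to 135 and 127 CPM (edgeR log2 fold change −0.25, adjusted p = 6.16e-10), and Psat1, an enzyme of serine synthesis, from 338 and 336 CPM to 291 and 289 CPM (−0.22, adjusted p = 6.04e-11). Phgdh and Mthfd2 were lower as well, by −0.14 and −0.17. Trib3, a stress-induced pseudokinase, was higher (0.31, adjusted p = 0.000467).

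Imprinted genes, expressed from 1 parental allele, went both ways, with 6 of 17 tested higher and 4 lower. Peg3 went from 38.6 and 39.5 CPM to 49.2 and 47.9 CPM (0.32, adjusted p = 1.92e-08) and Peg10 from 84.2 and 86.7 CPM to 102 and 105 CPM (0.28, adjusted p = 3.58e-10). Dlk1 went from 25.2 and 25.0 CPM to 18.2 and 18.7 CPM (−0.44, adjusted p = 1.04e-08) and Mest from 47.4 and 47.5 CPM to 37.9 and 36.7 CPM (−0.35, adjusted p = 3.15e-09). For each of these 4 genes the fractions did not overlap, which with 2 libraries a group says little by itself.

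Of 14 Notch pathway genes tested, 3 were higher and 0 lower, where 26.84% of all genes tested were called in either direction. The receptor Notch4 went from 5.46 and 4.85 CPM to 8.28 and 9.13 CPM (0.76, adjusted p = 5.17e-08), and the ligand Jag2 from 14.7 and 13.3 CPM to 18.1 and 18.2 CPM (0.37, adjusted p = 2.72e-05). Among 32 Hox genes tested, which set position along the body axis, 4 were lower (Hoxa9, Hoxa10, Hoxa11 and Hoxd13) and 0 higher, no larger a share than the 13.31% of all genes tested that were lower, and the lower count was 1 or 2 without any single one of the 4 inhibitor libraries.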
